A study of Mus musculus with 8 samples.

Results

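The cytosolic ribosomal protein genes encode the protein part of the ribosome that translates nuclear mRNAs, and 83 of the 48709 gene identifiers counted in this study belong to them. They were taken by symbol: every gene named Rpl or Rps with a number and at most a short paralog suffix, plus the stalk genes Rplp0, Rplp1 and Rplp2 and the small subunit gene Rpsa. The large subunit has 51 of them and the small subunit 32. A further 281 annotated ribosomal protein pseudogenes and retrocopies were set apart. Of the 83, 80 had enough reads to be tested. The 3 others were Rpl10l, with no read in any library, Rpl24 and Rpl39l.

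RNA came from C57Bl/6J mouse hematopoietic stem and progenitor cells, sorted as Lin-Sca1+cKit+ cells and grown without serum for 7 days, with Flt3 ligand and stem cell factor as the cytokines. The malonyl-CoA group (4 libraries) had 100 µM of this fatty acid precursor in the medium and the control group (4 libraries) had none, and no allele or transgene is named in either. Libraries carry the replicate numbers 1, 3, 4 and 5 in both groups and hold what grew from the seeded cells, not the cells as sorted. The labels call them biological replicates without saying whether each is an animal, a pool or a culture, so the tests measure the spread between these samples.

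A ribosome needs about equal numbers of nearly all its proteins. Proteins of the small subunit help to read the mRNA and hold the initiation factors, while those of the large subunit line the peptide exit tunnel, carry the stalk that recruits elongation factors and support peptide bond formation. Their mRNAs are among the most abundant of growing cells. Many start at a C followed by an unbroken run of pyrimidines, the terminal oligopyrimidine motif through which mTOR signalling and Larp1 set their translation. Blood formation is sensitive to ribosomal protein dose: loss of 1 copy of Rps19, Rpl5, Rpl11 and others underlies Diamond-Blackfan anemia. Most of these genes also left many intronless copies in the mouse genome, which matters for read counting.

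The start sites show what the genes share and where they differ. RefSeq promoter windows (build GRCm38.p6) were found for 63 of the 83 genes, with 75 start sites. An unbroken run of at least 8 pyrimidines overlapping the 5 bases on either side of the annotated start was present at 24 of the 75 (32%), against 9.38% of all 32851 promoters in the table. The sequences below run from 30 bases before the annotated start to 20 bases from it, on the strand of the gene, with that run in capitals. The first group has it, and holds genes from the low, the middle and the high end of the treatment comparison.
Rpl22l1: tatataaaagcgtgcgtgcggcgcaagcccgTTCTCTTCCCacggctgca
Rps15a: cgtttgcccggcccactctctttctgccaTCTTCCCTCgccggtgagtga
Rpl38: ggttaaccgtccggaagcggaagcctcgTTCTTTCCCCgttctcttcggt
Rplp2: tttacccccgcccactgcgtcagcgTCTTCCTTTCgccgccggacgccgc
Rps6: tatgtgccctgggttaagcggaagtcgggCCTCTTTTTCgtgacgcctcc
Rpl4: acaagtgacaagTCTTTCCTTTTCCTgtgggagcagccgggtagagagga
Rps27: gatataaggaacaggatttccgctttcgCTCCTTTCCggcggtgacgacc
The second group has no such run at the listed start, although it holds several of the genes with the smallest p-values of the comparison.
Rpl13: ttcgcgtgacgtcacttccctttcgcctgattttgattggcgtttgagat
Rps25: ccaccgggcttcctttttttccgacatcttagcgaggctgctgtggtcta
Rps3a1: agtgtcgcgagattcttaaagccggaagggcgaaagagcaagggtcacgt
Rpl39: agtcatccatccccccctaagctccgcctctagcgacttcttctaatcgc
Rplp0: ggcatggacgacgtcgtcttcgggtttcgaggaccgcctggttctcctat
Rpl27: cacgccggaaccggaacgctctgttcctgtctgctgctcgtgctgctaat
These windows lie at chr3:28805478-28805527 (Rpl22l1), chr7:118116128-118116177 (Rps15a, minus strand), chr11:114668550-114668599 (Rpl38), chr8:123102320-123102369 (Rpl13), chr9:44407684-44407733 (Rps25) and chr11:101442215-101442264 (Rpl27). In Rpl13, Rps25 and Rpl39 pyrimidine-rich stretches can be read within the window but do not overlap the 5 bases on either side of the listed start. The count thus depends on where the annotation places that start. With a run of at least 10 the share was 24% against 4.96% of all promoters.

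Over the whole window, 250 bases before to 50 after the start and on both strands, the ETS core CCGGAAG, a motif bound by GABP and its relatives, stood in 27 of the 75 windows (36%), against 8.86% of all promoters. Its reverse complement can overlap a pyrimidine run. The TATA box TATAAA stood in 7 (9.33%), against 13.6%. The YY1 motif was found in 0 of the 75, against 0.633%, which says only that these letters are not in these windows. The 24 genes with a run at a listed start had a median log2 fold change (malonyl-CoA minus control) of -0.25, with 22 below 0. The 36 tested genes whose listed starts had no run had a median of -0.34, with 32 below 0.

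Libraries held between 17492085 and 22079844 gene counts. Reads with several positions in the genome, which the counter sets aside and which ribosomal protein mRNAs feed through their copies, were 44.3% to 51.1% of tallied reads in controls and 38.2% to 48.9% with malonyl-CoA. Control 5 and malonyl-CoA 4 stood apart: control 5 had the largest mitochondrial share (6.79% of gene counts, 2.55% to 3.98% in the other controls and 1.68% to 4.195% with malonyl-CoA), and malonyl-CoA 4 had 2.94% of tallied reads in no gene, against 1.19% to 1.34% in the rest of its group. Stem and progenitor markers were all detected, with a summed 1151 to 1250 CPM (counts scaled to library depth, with TMM factors) in controls and 1063 to 1115 CPM with malonyl-CoA. Granulocyte markers (10 of 10 detected) summed to 13548 to 21398 CPM and 13704 to 17520 CPM, and mast cell and basophil markers (8 of 8) to 895 to 1079 CPM and 739 to 852 CPM. Monocyte markers (10 of 10) summed to 3423 to 4933 CPM and 3766 to 4827 CPM, and megakaryocyte markers (6 of 6) to 890.2 to 1101 CPM and 681 to 1014 CPM. Erythroid markers (4 of 8 detected in all libraries) summed to at most 7.42 CPM in any library with Hba-a2 and Alas2 at 0, lymphoid markers (4 of 10) to at most 4.89 CPM with Cd3e at 0, and stromal markers (3 of 8) to at most 165 CPM with Col3a1 at 0. Gene by gene, all 10 granulocyte markers had a log2 fold change below 0 (malonyl-CoA minus control), with a median of -0.50 and 5 lower at an unadjusted p under 0.05 in edgeR. Mast cell and basophil markers had 6 of 8 below 0, with a median of -0.24, and monocyte markers 3 of 10, with a median of 0.17. At the same unadjusted threshold 3 mast cell and basophil, 2 stem and progenitor and 1 of 3 tested erythroid markers were lower (4.1% of all genes). In the other direction 3 monocyte, 1 of 2 tested lymphoid and 1 of 3 tested stromal markers were higher (5.43% of all genes). No marker was called in edgeR, while DESeq2 called 3 monocyte markers and 1 stem and progenitor marker (0.555% of all genes). The part of these lists in the results below was not tested, and fewer cells of a type cannot be told apart from less RNA per cell.

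Ribosomal protein genes made up a smaller mean share of the gene counts with malonyl-CoA, but the groups overlapped. The share was 7.29%, 6.94%, 5.54% and 6.36% in controls 1, 3, 4 and 5. With malonyl-CoA it was 6.05%, 5.46%, 3.91% and 6.60% in libraries 1, 3, 4 and 5. Malonyl-CoA 5 thus exceeded controls 4 and 5, and malonyl-CoA 4 was lowest of all. The group means were 6.53% ± 0.765 (SD, n = 4) and 5.51% ± 1.16 (SD, n = 4), a difference of -1.03 percentage points. Without malonyl-CoA 4 the difference was -0.495 points, and without control 5 and malonyl-CoA 4 it was -0.553 points. The share of reads with several positions moved with the ribosomal protein share in part: it was lowest in malonyl-CoA 4 (38.2%) and in control 4 (44.3%) within their groups. The mitochondrial share was 1.76%, 2.17%, 1.68% and 4.195% in malonyl-CoA 1, 3, 4 and 5, so within this group it was also lowest in library 4 and highest in library 5. The part of either share in the difference was not tested.

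Both subunits moved together from library to library. As a mean log2 deviation from each gene's 8-library mean, the 80 genes stood at 0.27, 0.18, -0.20 and 0.32 in controls 1, 3, 4 and 5. They stood at -0.03, -0.18, -0.58 and 0.22 in malonyl-CoA 1, 3, 4 and 5. The distance between the subunits, large minus small, was -0.11, -0.08, -0.00 and 0.04 in these controls and 0.02, -0.01, 0.19 and -0.05 with malonyl-CoA. The distance was widest in malonyl-CoA 4, where small subunit genes were at -0.70 and large subunit genes at -0.51. Counts in small per large subunit genes were 1.08 ± 0.0666 (SD, n = 4) in controls and 1.02 ± 0.0720 (SD, n = 4) with malonyl-CoA, with overlapping ranges of 0.997 to 1.14 and 0.915 to 1.08. Mitochondrial ribosomal protein genes, made for a separate ribosome, varied less between controls, from -0.09 to 0.09, and were also lowest in malonyl-CoA 4 at -0.26.

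**Figure D1:**
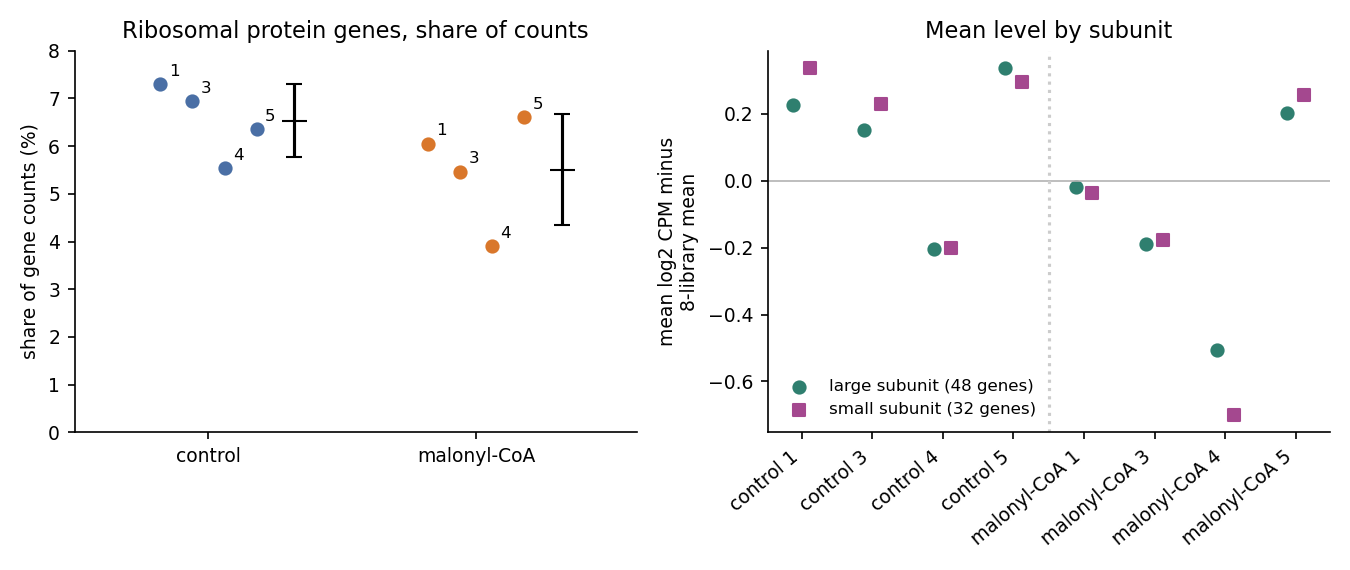
Left, share of gene counts in the 83 ribosomal protein genes (%), 1 point per library labelled by replicate number, with the group mean and SD beside the points. Right, mean log2 CPM of the tested large and small subunit genes in each library minus their 8-library mean; the 2 subunits lie close in every library, with the widest gap in malonyl-CoA 4, where both are lowest.

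With the replicate numbers left out of the fit, no ribosomal protein gene passed the test between the groups, yet most pointed the same way. In edgeR's quasi-likelihood test with Benjamini-Hochberg adjustment over 12696 genes, 0 of the 80 were called at an adjusted p under 0.05, as was the case for all genes (0% called). The log2 fold change was below 0 for 72 of 80, against 46.6% of all genes tested. The members' median was -0.30 and that of all genes 0.02. At an unadjusted p under 0.05, 10 of the 80 were lower and 0 higher, where 4.1% of all genes were lower and 5.43% higher. DESeq2 and limma-voom called 0 of the 80 (DESeq2 called 0.555% of all genes, limma-voom 0%). For no member did the groups separate without overlap, against 2.93% of all genes lower and 3.21% higher without overlap.

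The count rests partly on the libraries that stood apart. Malonyl-CoA 4 was the lowest of the 8 libraries for 61 of the 80 genes, and control 5 the highest for 36 and control 1 for 30. Without malonyl-CoA 4 the members' median was -0.18, with 63 of 80 below 0 (53.6% of all genes). Without control 5 it was -0.26, with 67 of 79 below 0 (46% of all genes). Without both of these libraries it was -0.11, with 55 of 79 below 0 (50.9% of all genes). A correction for GC content gave a median of -0.37 with 77 of 80 below 0 (54.5% of all genes).

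By subunit, 41 of 48 tested large subunit genes and 31 of 32 small subunit genes had a log2 fold change below 0. The medians were -0.28 and -0.36, a distance of 0.08. In single libraries the mean deviations of the subunits parted by -0.11 to 0.19. That is another measure and its range spans both groups, so it sets no limit for the distance, which was not tested. The single small subunit gene above 0 was Rps27, which was below 0 after the GC correction, and the 7 large subunit genes above 0 were Rpl27, Rpl3l, Rpl10a, Rpl36, Rpl19, Rpl41 and Rpl8. Mitochondrial ribosomal protein genes were spread about 0, with 41 of 77 below it and a median of -0.01.

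**Figure D2:**
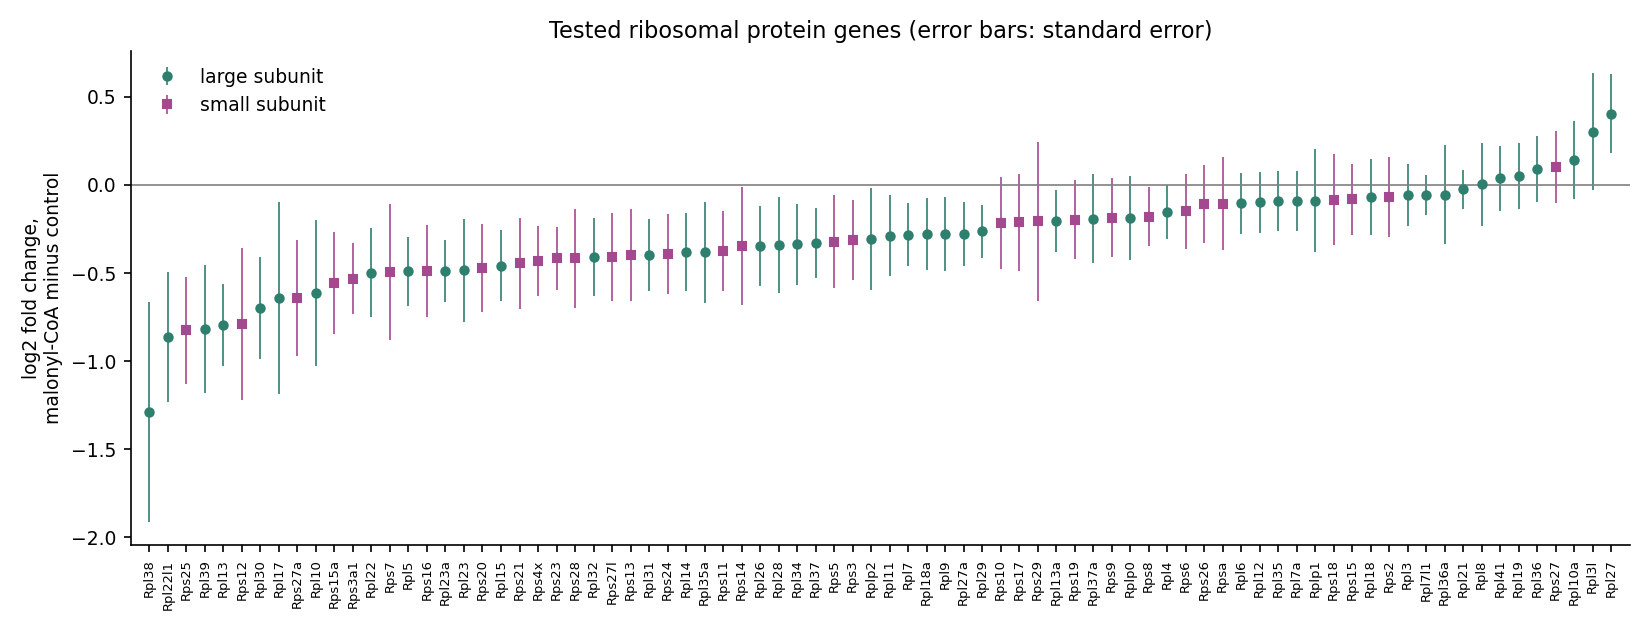
Log2 fold change (malonyl-CoA minus control) with its standard error for the 80 tested ribosomal protein genes in order, circles for the large and squares for the small subunit. The genes run from -1.29 for Rpl38 to 0.40 for Rpl27, 72 lie below 0, and none passed the adjusted threshold.

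Among large subunit genes, Rpl13 had the smallest p-value. The gene lies at chr8:123102350-123105244 on the plus strand of GRCm38. Its level was 105, 107, 85.5 and 159 CPM in controls 1, 3, 4 and 5. With malonyl-CoA it was 67.1, 59.6, 47.3 and 90.5 CPM in libraries 1, 3, 4 and 5. Only malonyl-CoA 5 reached above the lowest control. The log2 fold change was -0.79 ± 0.23 (SE), with an adjusted p of 0.399 in edgeR, and without control 5 it was -0.59.

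Rpl30, Rpl23a and Rpl5 followed. Rpl30, a small protein at the subunit interface, stood at 293, 297, 195 and 479 CPM in controls 1, 3, 4 and 5 and at 221, 171, 127 and 261 CPM in malonyl-CoA 1, 3, 4 and 5. Rpl23a, which sits at the peptide exit, stood at 208, 177, 156 and 194 CPM in those controls and at 129.8, 136, 91.2 and 167 CPM with malonyl-CoA. In both genes control 4 fell among the treated values. The log2 fold changes were -0.70 ± 0.29 for Rpl30 (adjusted p 0.515 in edgeR) and -0.49 ± 0.18 for Rpl23a (adjusted p 0.502 in edgeR). Rpl5, which binds 5S rRNA and, when free, Mdm2, stood at 41.1, 41.4, 34.2 and 62.8 CPM in controls and at 28.7, 29.4, 31.4 and 38.4 CPM with malonyl-CoA. Here malonyl-CoA 4 was not the lowest, and only malonyl-CoA 5 exceeded a control (edgeR log2 fold change -0.49 ± 0.19, adjusted p 0.507).

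Rpl22 and its paralog Rpl22l1 are of interest in blood, since Rpl22 is needed for the development of some T cells and can repress Rpl22l1. Rpl22l1 stood at 249.7, 267, 158 and 502 CPM in controls 1, 3, 4 and 5, and at 174, 141, 92.0 and 239.9 CPM in malonyl-CoA 1, 3, 4 and 5. Rpl22 stood at 1098, 1039, 751 and 1594 CPM in controls and at 861, 749, 526 and 1040.1 CPM with malonyl-CoA. Both genes were highest in control 5 and lowest in control 4 among controls. Their log2 fold changes, -0.86 ± 0.37 for Rpl22l1 and -0.50 ± 0.25 for Rpl22, both had an adjusted p of 0.515 in edgeR. Without control 5 that of Rpl22l1 was -0.48.

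Rpl39, a short protein of the exit tunnel, was among the more variable genes. It stood at 1112, 1061, 648 and 2128 CPM in controls 1, 3, 4 and 5 and at 792, 668, 398 and 946 CPM in malonyl-CoA 1, 3, 4 and 5. Control 4 lay below 3 of the treated libraries. The log2 fold change of -0.82 ± 0.36 (adjusted p 0.515 in edgeR) became -0.42 without control 5. Its paralog Rpl39l was near the floor in every library, with 2 to 29 counts, the highest in control 5.

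Rpl38 had the lowest log2 fold change of all members and rests on 1 library. It is singled out here after its values were seen, as are Rpl17, Rps12, Rps15a, Rps6 and Rpl4. Rpl38, which affects the translation of Hox mRNAs in the embryo, stood at 14.1, 13.9, 11.8 and 76.2 CPM in controls 1, 3, 4 and 5 and at 10.6, 11.2, 6.92 and 19.2 CPM with malonyl-CoA. Control 5 is far above the other 7 libraries, which overlap. The log2 fold change was -1.29 ± 0.63 with control 5 and -0.16 ± 0.31 without it. Rpl17 stood at 190.1, 199, 137 and 859.8 CPM in controls and at 256, 187, 152 and 294 CPM with malonyl-CoA, and its log2 fold change went from -0.64 to 0.34 without control 5.

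Rpl4, a large protein that reaches into the exit tunnel, was steady by comparison. It stood at 2876, 3241, 3403 and 4418 CPM in controls 1, 3, 4 and 5 and at 3109, 2984, 3083 and 3361 CPM with malonyl-CoA. The low value of malonyl-CoA 4 in most members was not seen here. Rpl27 had the highest log2 fold change, 0.40 ± 0.22 (adjusted p 0.520 in edgeR). It stood at 20.02, 15.3, 10.4 and 10.8 CPM in controls and at 21.7, 18.6, 15.1 and 19.2 CPM with malonyl-CoA, so the groups overlapped. The next large subunit genes above 0 were Rpl3l (0.30 ± 0.33), Rpl10a (0.14 ± 0.22), Rpl36 (0.09 ± 0.19) and Rpl19 (0.05 ± 0.19). The direction of Rpl36 and Rpl19 was negative after the GC correction, and that of Rpl10a was negative without malonyl-CoA 4.

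Among small subunit genes, Rps25 and Rps3a1 had the smallest p-values. Rps25, a protein of the subunit head that some viral mRNAs need for internal initiation, stood at 523, 469, 354 and 935 CPM in controls 1, 3, 4 and 5. With malonyl-CoA it stood at 346, 322, 206 and 413 CPM in libraries 1, 3, 4 and 5. Only malonyl-CoA 5 exceeded the lowest control. Rps3a1, which lies near the mRNA exit, stood at 2060.5, 2099, 1716 and 2717 CPM in controls and at 1539, 1460.5, 1052 and 1893 CPM with malonyl-CoA, with the same single overlap. The log2 fold changes were -0.83 ± 0.30 and -0.53 ± 0.20, both with an adjusted p of 0.502 in edgeR, and -0.48 and -0.40 without control 5.

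Rps15a and Rps12 had the same shape with more spread. Rps15a stood at 1089.8, 1044, 680 and 1614 CPM in controls 1, 3, 4 and 5 and at 847, 732, 449.5 and 986 CPM with malonyl-CoA. Rps12 stood at 84.4, 79.97, 54.9 and 219.99 CPM in controls and at 64.3, 59.2, 35.9 and 95.1 CPM with malonyl-CoA. In both genes control 4 was below malonyl-CoA 1, 3 and 5. The log2 fold change of Rps12 was -0.79 ± 0.43, and -0.20 without control 5.

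**Figure D3:**
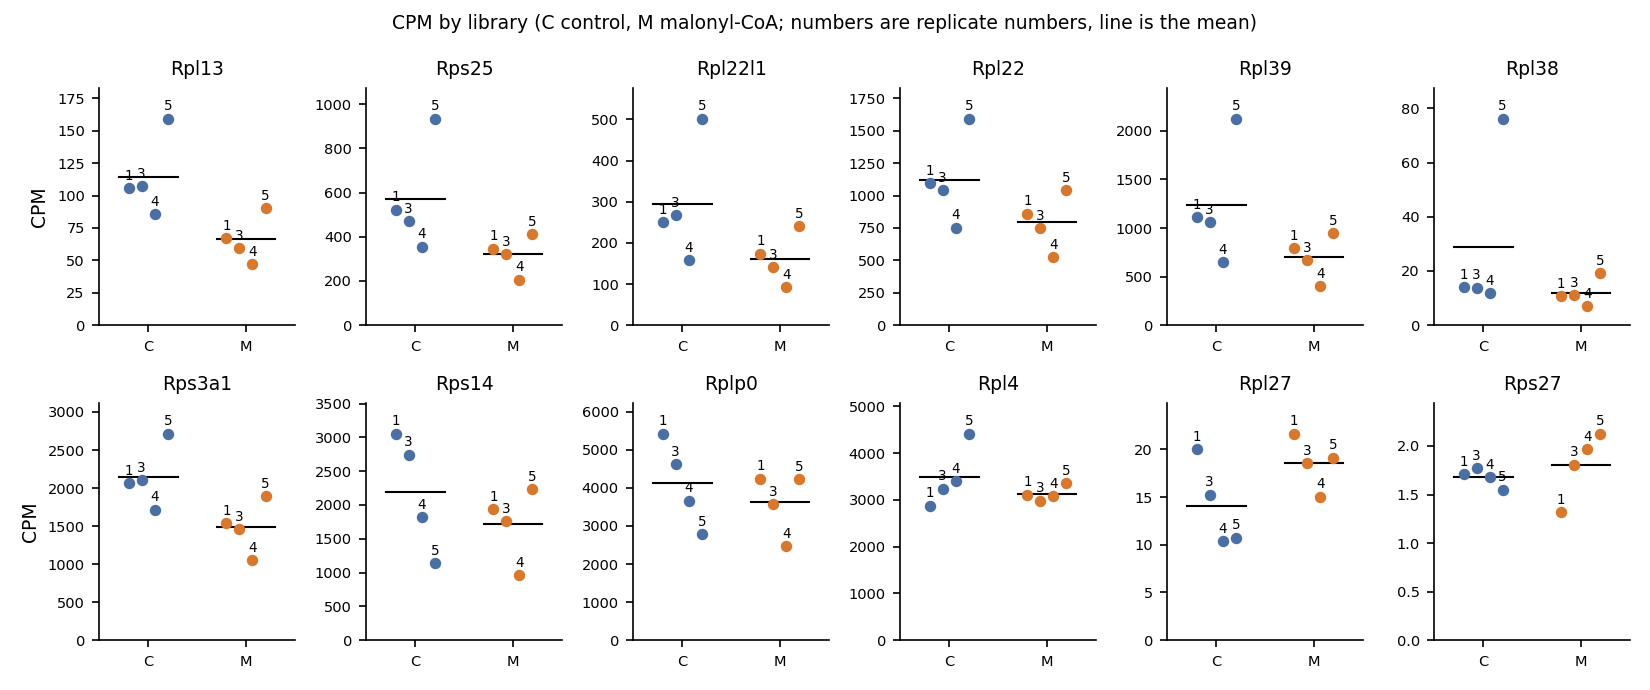
CPM in each library for 12 ribosomal protein genes, controls at left and malonyl-CoA at right in each panel, points labelled by replicate number and lines at the group means, axes from 0. Control 5 is the highest library for Rpl38 and Rpl39 and the lowest control for Rps14 and Rplp0, and malonyl-CoA 4 is the lowest library for most genes but not for Rpl4, Rpl27 or Rps27.

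The ribosomal stalk and Rpsa, the laminin receptor gene that encodes a small subunit protein, had overlapping groups. Rplp0, the stalk base, stood at 5428, 4620.4, 3667 and 2786 CPM in controls 1, 3, 4 and 5 and at 4242, 3568, 2470.2 and 4228 CPM with malonyl-CoA. Rplp1 stood at 2565, 2376, 1505 and 1349 CPM in controls and at 2162, 1628, 1055 and 2482 CPM with malonyl-CoA. The groups overlapped over most of their ranges in both. Their log2 fold changes were -0.19 ± 0.24 and -0.09 ± 0.29, that of Rplp2 was -0.31 ± 0.29 and that of Rpsa -0.11 ± 0.26 (smallest adjusted p of the 4 genes 0.646 in edgeR). Rplp2 was thus as far from 0 as the median member. In contrast to Rpl38, control 5 was the lowest control for Rplp0, Rplp1 and Rpsa.

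Genes tied to inherited or acquired ribosome failure in blood shared the direction of the rest: 18 of 20 were below 0, with a median of -0.32, and 0 were called. Rps19, mutated most often in Diamond-Blackfan anemia, stood at 1193, 1075, 943 and 649 CPM in controls 1, 3, 4 and 5 and at 871, 836, 577 and 1083 CPM with malonyl-CoA (log2 fold change -0.20 ± 0.23). Rps14, whose loss contributes to the anemia of a myelodysplastic syndrome, stood at 3058, 2743, 1822 and 1144 CPM in controls and at 1942, 1759, 960 and 2236 CPM with malonyl-CoA (-0.35 ± 0.33). In both genes control 5 lay inside the range of the treated libraries. Rpl11, the partner of Rpl5 in binding Mdm2, stood at 10.9, 11.5, 9.18 and 18.6 CPM in controls and at 9.30, 8.79, 10.8 and 12.3 CPM with malonyl-CoA (-0.29 ± 0.23).

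Tissue-restricted paralogs were mostly near the detection limit. Rpl3l, a paralog of Rpl3 used in muscle, stood between 0.279 and 0.657 CPM over the 8 libraries. Rpl10l, a testis gene, had 0 counts in every library, where 3 counts, the upper limit a count of 0 allows, are 0.134 to 0.177 CPM; this covers counting error only. The broadly used paralogs Rpl7l1 and Rps27l were well counted. Rpl7l1 stood between 184 and 227 CPM in controls and between 174 and 216 CPM with malonyl-CoA, with a log2 fold change of -0.06 ± 0.11. Rps27l, a p53 target, stood at 202, 192, 146 and 258 CPM in controls 1, 3, 4 and 5 and at 162, 150.4, 87.8 and 202 CPM with malonyl-CoA (-0.41 ± 0.25). The 7 parent genes had a median of -0.43 with 6 below 0, and 5 tested paralogs, the transcribed retrocopy Rps4l included, a median of -0.06 with 3 below 0.

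Control 5 differed from the other controls gene by gene rather than by a common shift. The SD of the members' deviations within a library was 0.64 (log2) in control 5, 0.36 in malonyl-CoA 4 and 0.11 to 0.22 in the other 6. In control 5, 12 members lay over 1 log2 unit from their 8-library mean, and 5 did in malonyl-CoA 4. Against the mean of controls 1, 3 and 4, control 5 was at least 2-fold higher for 12 of 80 tested members (1.76% of all genes) and at or under 50% of it for 2 (1.69% of all genes). The 12 included Rpl38 (5.75-fold), Rpl17 (4.90-fold), Rpl10 (3.49-fold), Rps29 (3.08-fold) and Rps12 (3.01-fold), and the 2 were Rps14 (0.450 of the mean) and Rpsa (0.486). Rpl10, a late-joining protein mutated in some T-cell leukemias, stood at 69.9, 62.7, 47.0 and 209 CPM in controls 1, 3, 4 and 5, and at 60.9, 56.5, 63.4 and 73.0 CPM with malonyl-CoA.

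These deviations followed base composition in part. Across the 80 genes, which are not independent replicates and share each library, the deviation in control 5 had a Spearman rho of -0.47 with the percentage of G and C in the principal mRNA. Across all tested genes, with G and C taken from the longest annotated transcript instead, the rho in control 5 was -0.67. In the other 7 libraries the members' rho lay between 0.03 and 0.41. The log2 fold change of the members had a rho of 0.49 with G and C: Rpl22l1 (40.6% G and C) was at the low end and Rpl36 (60.8%) above 0. It had a rho of -0.05 with sequence uniqueness and of 0.03 with level.

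**Figure D4:**
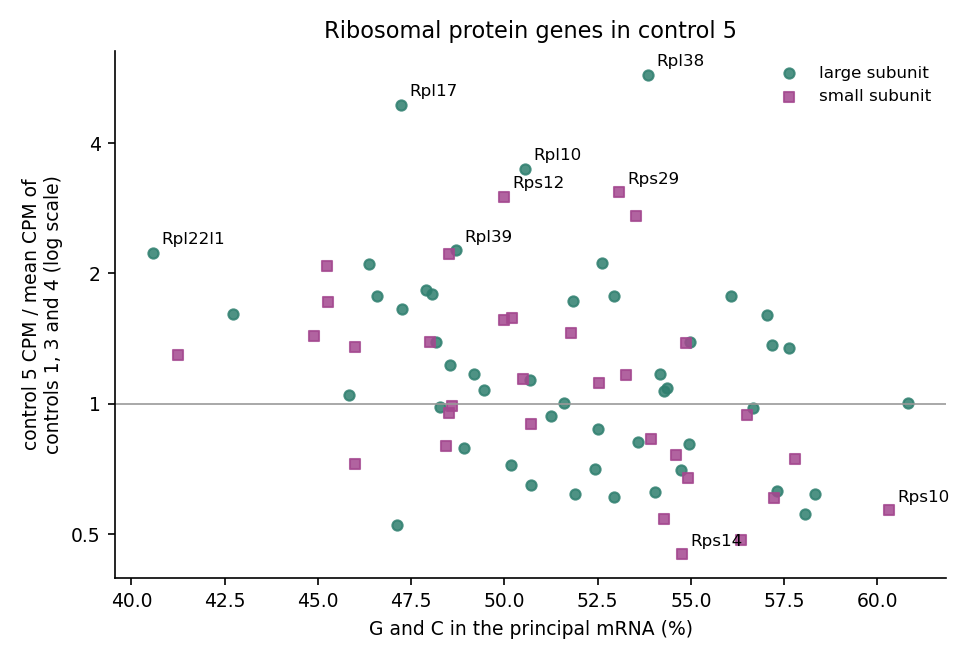
Level in control 5 relative to the mean of controls 1, 3 and 4 (log axis) against G and C of the principal mRNA (%), 1 point per tested ribosomal protein gene, circles large and squares small subunit, line at equal level. Rpl38, Rpl17 and Rpl10 lie highest, Rps14 lowest, and low-GC genes tend to lie above the line.

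Although a ribosome holds about equal numbers of these proteins, the counted mRNA levels spanned several orders of magnitude. As mean CPM per kb of exon over all 8 libraries, the median was 177 over the 83 genes, 142 in the large and 252 in the small subunit. The highest were Rplp1 (3788), Rplp0 (2336), Rps15 (2280.3) and Rpl32 (2056). Rplp1 and Rplp2 are present in more than 1 copy per ribosome, but Rplp2 stood at 302 on this scale. The lowest tested genes were Rpl3l (0.302), Rps29 (1.63), Rps27 (1.67) and Rpl36a (2.64), of which the last 3 encode core ribosomal proteins. In all, 10 genes stood above 1000 CPM per kb and 9 under 10 CPM per kb, Rpl10l and Rpl24 included.

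Sequence shared with other genes went with part of this spread. Each 75-base stretch of a gene's principal mRNA was looked up in all annotated transcripts of other genes. The median gene had 54.1% of its stretches found in no other gene, 4 had 100%, and 34 had under 50%. Genes with at least 50% unique had a median of 302 CPM per kb, and those with less 97.1 CPM per kb. Spearman's rho between level and uniqueness was 0.38 over the 83 genes and 0.35 to 0.39 in single libraries, given as a description. Unannotated copies in the genome were not searched, so true uniqueness can be lower.

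The lowest core genes show how this looks for single members. Rps27 had 1.48% unique stretches and stood at 1.71, 1.77, 1.68 and 1.55 CPM in controls 1, 3, 4 and 5 and at 1.32, 1.81, 1.97 and 2.13 CPM with malonyl-CoA. Its paralog Rps27l had 88% unique stretches and 215 CPM per kb, against 1.67 for Rps27. Rpl36a had 15.4% and stood between 3.18 and 6.62 CPM. Rps6, the substrate of the ribosomal S6 kinases, had 15.9% and stood between 12.4 and 23.9 CPM, or 10.5 CPM per kb. Rps29 does not follow the pattern, with 69.3% unique stretches and 0.559 to 2.44 CPM. Rpl24 had 23.2% unique stretches and 0 to 8 counts in a library. Its exons overlap those of another annotated gene on the same strand, where a counter sets reads aside as ambiguous. The part of either in its low count was not tested. The values of all these genes therefore describe what the counter could assign, and no order of true mRNA levels follows from them. Exons of 4 members overlapped another gene on the same strand and those of 19 an antisense gene. Of the 4, Rpl13a, Rpl19 and Rps10 were well counted, with means of 119, 210 and 378 CPM over the libraries. The strand setting of the counter is not given in the sources used here, so reads of antisense partners cannot be told apart.

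**Figure D5:**
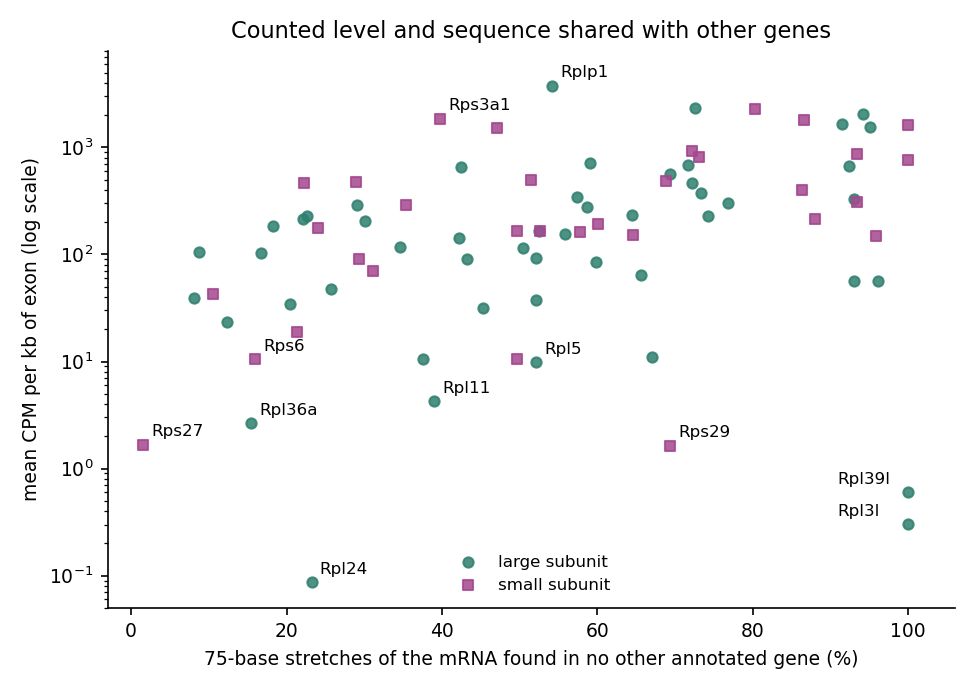
Mean CPM per kb of exon (log axis) against the percentage of 75-base stretches of the principal mRNA found in no other annotated gene, for the 82 ribosomal protein genes with any read, circles large and squares small subunit. Rps27 and Rpl36a lie at the lower left, Rplp1 at the top, and Rpl3l and Rpl39l are low although fully unique.

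The annotated pseudogenes took few reads, 0.00988% to 0.0285% of gene counts. Of 281, 91 had no read in any library and 43 passed the filter on low counts. Of these 43, 41 had a log2 fold change below 0, with a median of -0.65, and 0 were called in edgeR. A gene can pass that filter through 1 group alone, so these numbers describe only the 43. Their summed level was 210.2, 289, 135 and 215 CPM in controls 1, 3, 4 and 5 and 147, 96.2, 94.5 and 196 CPM in malonyl-CoA 1, 3, 4 and 5, so the groups overlapped. Rpl39-ps, the most abundant, stood at 25.4, 37.8, 13.5 and 17.4 CPM in those controls and at 15.1, 8.06, 7.77 and 19.7 CPM with malonyl-CoA. Rps4l went the other way, with 10.4, 10.4, 11.3 and 8.17 CPM in controls and 12.3, 11.6, 13.9 and 12.1 CPM with malonyl-CoA, every treated library above every control (log2 fold change 0.31 ± 0.15, adjusted p 0.515 in edgeR). Its parent Rps4x had a log2 fold change of -0.43 ± 0.20. Adding pseudogene counts to their parents left the members' median at -0.31.

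Introns of ribosomal protein genes carry small nucleolar RNAs that guide the modification of ribosomal RNA. There were 30 host genes among the 83, with 58 annotated snoRNAs. All 30 had a log2 fold change below 0, with a median of -0.35 and a range from -0.82 to -0.03. Of the 50 tested genes without one, 42 were below 0, with a median of -0.27.

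Rack1, Fau and Rpl36al are ribosomal protein genes outside the symbol rule, and all had log2 fold changes below 0 without passing the test. Rack1, a signalling scaffold on the small subunit, stood at 6011, 5068, 3665 and 2936 CPM in controls 1, 3, 4 and 5 and at 4125, 3471, 2277 and 4110.4 CPM with malonyl-CoA (log2 fold change -0.34 ± 0.26). Fau, which encodes a ubiquitin-like fusion to a small subunit protein, had -0.10 ± 0.24, and Rpl36al, the retained copy of Rpl36a, had -0.65 ± 0.33.

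In the same fit, without the replicate numbers, 0 genes of the other lists around the ribosome were called in edgeR, as in the background of 0%. Of 20 other mRNAs with the terminal oligopyrimidine motif, such as translation factors and Npm1, 15 were below 0, with a median of -0.15. Eif3e, an initiation factor subunit, stood at 862, 771, 547 and 1037 CPM in controls 1, 3, 4 and 5 and at 588, 565, 359 and 656 CPM with malonyl-CoA (log2 fold change -0.57 ± 0.23). Of 12 chaperones and importers of ribosomal proteins, 6 were below 0, with a median of -0.01. Of 18 genes that control ribosomal protein mRNA translation, 14 were above 0 (53.4% of all genes), with a median of 0.23. Larp1, which binds the terminal motif, stood at 49.2, 74.1, 189.9 and 92.0 CPM in controls and at 135, 154, 364 and 92.9 CPM with malonyl-CoA (log2 fold change 0.88 ± 0.49). Larp1 had the highest log2 fold change of these 18 genes and was singled out after its values were seen. The smallest adjusted p of the 18 was 0.515 in edgeR. Both libraries numbered 4 were the highest of their group for Larp1 and the lowest of their group in ribosomal protein share. A link between Larp1 and that share was not tested.

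Mtor itself stood at 21.0, 25.4, 39.5 and 24.2 CPM in controls 1, 3, 4 and 5 and at 36.2, 37.1, 70.03 and 25.2 CPM with malonyl-CoA, again highest in the libraries numbered 4 (log2 fold change 0.61 ± 0.31). In the pathway that watches over free ribosomal proteins and stalled ribosomes, 9 of 10 genes were above 0, with a median of 0.24. Ube2o, a ligase that marks unassembled ribosomal proteins, stood at 13.9, 16.7, 24.6 and 13.5 CPM in controls and at 23.8, 25.5, 38.9 and 21.8 CPM with malonyl-CoA (0.68 ± 0.24, adjusted p 0.502 in edgeR). Trp53 stood at 149 to 209 CPM in controls and 211 to 227 CPM with malonyl-CoA, without overlap (0.25 ± 0.12, adjusted p 0.515 in edgeR). Of 9 transcription factors linked to ribosomal protein promoters, 7 were below 0, with a median of -0.09 and a range from -0.19 to 0.64. At an unadjusted p under 0.05 in edgeR, 1 of the 9 was higher and 0 lower (5.43% and 4.1% of all genes). The smallest adjusted p of the 9 was 0.432 in edgeR.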

How the data were processed

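Total RNA libraries (a stranded kit, per the labels' protocols) gave raw counts per Ensembl gene, which the authors deposited as 1 file per library without normalization. Per the submitters' processing notes, the tools were HTSeq 0.6.1, STAR 2.5.2b and cutadapt 1.8, with build GRCm38. The sources used here give neither the strand setting nor the annotation release. Classes that name no gene (reads with no feature 1.11% to 2.94% of tallied reads, ambiguous 0.715% to 0.891%, several positions 38.2% to 51.1%) entered neither library sizes nor tests. Of 48709 identifiers, 48349 matched GENCODE M21.

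Samples were grouped by title. The test was edgeR 4.0.16 in R 4.3.3: filterByExpr (minimum count 10), TMM, robust glmQLFit and glmQLFTest (two-sided, no covariate), with Benjamini-Hochberg adjustment over 12696 genes and a threshold of 0.05. A standard error is the size of the log2 fold change divided by the root of its F statistic. Levels between genes are CPM per kb of all exons. Uniqueness (75-base stretches) was counted against annotated transcripts, since no genome sequence was used; counting over the genome had been planned. Promoters came from RefSeq (GRCm38.p6).

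Members, lists and alternatives were chosen with earlier results of these data known. The alternatives were other scaling factors and filters, DESeq2 1.42.0, limma-voom (limma 3.58.1), the replicate block, each library left out, a GC correction, pseudogene counts added to parents, other stretch lengths and other runs; the block with the GC correction together, the principal transcript length, and overlaps and shares without libraries were added after seeing the data. Genes were named by rule: the 6 members per direction with the smallest p, the 4 highest and 4 lowest by level, paralog pairs, stalk genes and Rpsa, Rps19, Rps14, Rpl5 and Rpl11, up to 3 per other list and the 4 most abundant pseudogenes; not all are described, and genes named outside it were chosen after their values were seen. The test was run on simulated data first. All 28 pairs of libraries differed by more than sampling noise. At 17492085 to 22079844 gene counts a library, counting error is large for genes near 1 CPM.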

Additional observations from a re-analysis of the deposited data

Results flagged for a closer look

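Control 5 lay far above the other controls for 4 named ribosomal protein genes. Its level was 76.2 CPM for Rpl38 (11.8 to 14.1 CPM in the other controls), 860 CPM for Rpl17 (137 to 199 CPM), 209 CPM for Rpl10 (47.0 to 69.9 CPM) and 6.62 CPM for Rpl36a (3.55 to 3.99 CPM). The gap to the nearest control was 0.964, 0.915, 0.859 and 0.856 of the group's whole range, above Dixon's 95% critical value for 4 samples. Of 78 groups of 4 values tested in this way, for 39 named genes, 4 passed, all for control 5 at the high end, and chance flags about 1 in 20. Rpl38 and Rpl17 had been singled out for these values. Malonyl-CoA 4 had 2.94% of tallied reads in no gene, against 1.19% to 1.34% in the other treated libraries, a gap of 0.913 of the range.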

How the results depend on the processing

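The median log2 fold change of the ribosomal protein genes stayed below 0 under every alternative run, from -0.42 without malonyl-CoA 5 to -0.11 without control 5 and malonyl-CoA 4; leaving out 1 library gave -0.42 to -0.18. Leaving out 1 library gave a large minus small subunit distance of 0.02 to 0.12, a share difference of -1.39 to -0.495 percentage points, 0 to 0 members or other genes called in edgeR, and 0 to 1 members without overlap (1 without control 5, 4.55% of all genes). Genes called over the whole table numbered 1 with no filter on low counts, 81 with DESeq2 (0 members), 172 with the replicate block and 6 with the block and the GC correction.

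Replicate numbers were not taken as pairs, since deviations of same-numbered libraries correlated at 0.435, 0.428, 0.754 and 0.052 over all genes and the last is under 0.1; over the members alone the values were 0.45, 0.19, 0.214 and 0.275. With the replicate block edgeR called 8 members, all lower (0.221% of all genes were called lower): Rpl13, Rpl22l1, Rpl30, Rps25, Rpl39, Rps15a, Rps3a1 and Rpl22, with adjusted p from 0.0464 to 0.0481, and with the block and the GC correction together it called 1 (0.0158% of all genes lower). Of the other genes described, the block called Eif3e lower and Ube2o higher, both with an adjusted p of 0.0464 in edgeR, and it called the granulocyte marker S100a8 lower and the monocyte markers Csf1r and Marco higher. In the block fit 0 members were called higher (1.13% of all genes). Of the controls, 3 of 4 correlated best with the treated library of their own number, a hint from the data and not from the design. The cause was not tested.

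Spearman's rho of level and uniqueness was 0.37 per kb of the longest transcript, 0.34 per kb of the principal transcript, 0.29 with stretches of 50 bases and 0.45 with 100. A run of at least 6 pyrimidines stood at 44% of starts (20.2% of all promoters).

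Sign changes reached genes near 0 and genes far from it, such as Rpl38, Rpl17 and Rpl10. Leaving out 1 library gave Rps15 -0.22 to 0.047, Rplp1 -0.27 to 0.089, Rpl3 -0.20 to 0.084, Rpsa -0.31 to 0.053, Rpl36 -0.022 to 0.21, Rpl19 -0.063 to 0.15, Rps29 -0.46 to 0.43, Rpl36a -0.30 to 0.20, Rpl7l1 -0.11 to 0.0033, Rpl10 -0.84 to 0.085, Rpl10a -0.037 to 0.31, Rpl17 -0.91 to 0.34 and Rps6 -0.27 to 0.042. Without control 5 and malonyl-CoA 4, Rps29 stood at 0.25, Rpl7l1 at 0.052, Rpl10 at 0.085, Rplp2 at 0.027, Rpl38 at 0.036, Rpl17 at 0.49 and Rps6 at 0.14. Without both libraries numbered 4, Rpl10a stood at -0.15 and Rpsa at 0.012. The GC correction gave Rpl36 -0.28, Rps27 -0.097 and Rpl19 -0.12, and with the block -0.27, -0.094 and -0.12.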
